A study of Homo sapiens with 4 samples.

Results

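The integrin and laminin genes were taken by symbol. The whole symbol had to be ITGA followed by digits or capital letters, or ITGB, LAMA, LAMB or LAMC followed by 1 digit. This rule found 38 of the 17894 genes measured: 18 integrin α genes, 8 integrin β genes, 5 laminin α genes, 4 laminin β genes and 3 laminin γ genes. Expression was measured by RNA-SEQ in H1 cells, a human embryonic stem cell line, after 2 days of hematopoietic differentiation on mAGM-S3, a mouse stromal cell line, in medium with serum. All 4 samples were sorted by FACS for a human surface antigen. The groups were 1 control library of wild type H1 cells, 1 library of wild type H1 cells that received 20 ng/mL of R-spondin2 during 1 day, and 1 library from each of 2 LGR4-/- clones without added R-spondin2. LGR4 encodes a receptor for R-spondins. How the LGR4 alleles were changed is not given in the sources used here. The control and R-spondin2 groups have 1 library each, and each LGR4-/- library is 1 clone. No difference with R-spondin2 therefore has a replicate check. The 2 clones can be set beside each other, but both are compared with the same 1 control library.

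Integrins are heterodimers of an α and a β subunit that span the cell membrane and bind the extracellular matrix outside the cell and the actin cytoskeleton inside it. The α subunit largely decides the ligand. ITGA5, ITGAV, ITGA8 and ITGA2B belong to the receptors that recognize the RGD sequence of fibronectin, vitronectin and related proteins, ITGA3, ITGA6 and ITGA7 to the laminin receptors, and ITGA1, ITGA2, ITGA10 and ITGA11 to the collagen receptors. ITGA4 and ITGA9 form a small subfamily of their own, and ITGAL, ITGAM, ITGAX, ITGAD and ITGAE are known from leukocytes. Laminins are trimers of an α, a β and a γ chain and form the core of basement membranes. Pluripotent human cells are known to attach to laminin through ITGA6 with ITGB1, and cells that leave the epithelial state during gastrulation are known to engage fibronectin through ITGA5 with ITGB1.

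Levels are given in FPKM, a fragment count per gene after scaling for transcript length and depth. They can therefore be set beside each other between genes as well as between libraries. The depth, estimated from the lowest values, was between 8680000 and 8910000 reads per library. LGR4 itself was at 21.8 FPKM in the control, 24.3 FPKM with R-spondin2, 7.40 FPKM in clone 1 and 13.9 FPKM in clone 2, so that its RNA was lower in both clones but present. BSG, which encodes the protein that carries the sorted antigen, lay between 393.4 and 483.2 FPKM in all 4 libraries. In sorted bulk cells, a lower share of cells that express a gene and less RNA per cell cannot be told apart.

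Of the 38 genes, 21 averaged 1 FPKM or more across the libraries and were compared: 10 integrin α genes, 2 integrin β genes, and 3 genes of each laminin class. The other 17 lay between 0 and 1.46 FPKM in single libraries. Among the integrins, 1 β pair carried nearly all β RNA. ITGB1 made up 53.5% and ITGB5 45.2% of summed β FPKM in the control. The α RNA was spread over more genes, led by ITGA5 in every library except LGR4-/- clone 1, where ITGA6 was higher. Among the laminins the leading chains were LAMA5 and LAMA1, LAMB1 and LAMB2, and LAMC1, in that order within their classes in all 4 libraries. The sum over all 38 genes was 526.8 FPKM in the control, 567.3 FPKM with R-spondin2, 453.3 FPKM in clone 1 and 493.9 FPKM in clone 2.

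**Figure D1:**
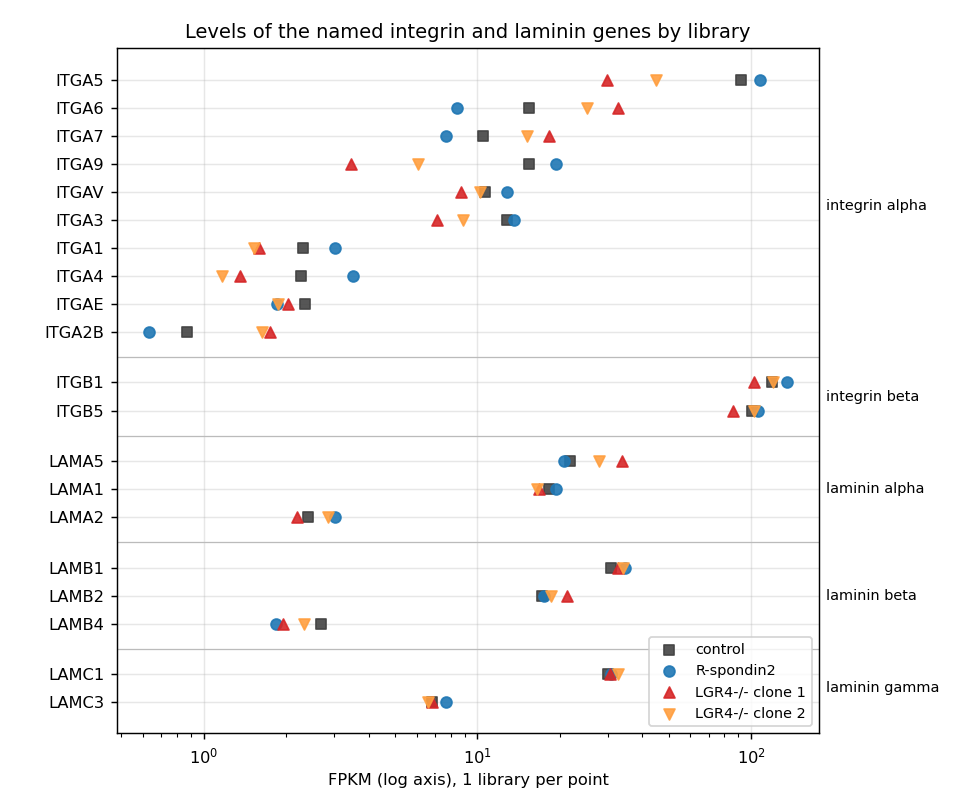
FPKM (horizontal log axis) of the named integrin and laminin genes that averaged 1 FPKM or more, grouped by class, with 1 point per library. The points of ITGA5, ITGA6, ITGA7 and ITGA9 lie far apart, with ITGA5 between 29.7 and 108.0 FPKM, while those of ITGB1, ITGB5, LAMB1 and LAMC1 lie close together.

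A difference was called at 2-fold, an absolute difference of at least 1 in log2(FPKM + 1), on which low genes appear to change less than they do. With R-spondin2, 0 of the 21 genes passed 2-fold, against 0.221% of the 12697 genes compared. ITGA5 and ITGA9 fell by at least 2-fold in both LGR4-/- clones, which makes 2 of 21 genes called, against 1.32% of all genes. Both were lower, against 1.08% of all genes, and 0 of 21 were higher, against 0.236%. In clone 1 alone ITGA6 also passed 2-fold, upward, so that 3 of 21 passed, against 3.52% of all genes. In clone 2 alone the same 2 genes passed as in both, against 1.5% of all genes. Between the clones, 0 of 21 passed and 0.252% of all genes did. Both clones lay below control and R-spondin2 in 7 of the 21 genes, against 27.6% of all genes, and above them in 6, against 34.4%, so that these counts were near the background. The median log2 change of the 21 genes was 0.08 with R-spondin2, -0.12 in clone 1 and 0.01 in clone 2, beside -0.01, 0.02 and 0.02 over all genes compared. Members went both ways: with R-spondin2, 15 of 21 were higher by any amount, against 47.8% of all genes, and in the mean of the clones 9 of 21 were, against 53.6%.

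A limma fit over all genes with 3 groups, in which the spread rests on the difference between the 2 clones, called 0 of 12697 genes at an adjusted p of 0.05 or less for LGR4-/- against control. At an unadjusted p under 0.05 it marked 2332 genes. These included 8 of the 21: ITGA3, ITGA4, ITGA5 and ITGA9, lower, and ITGA2B, ITGA6, ITGA7 and LAMA5, higher. The smallest adjusted p among the 21 was 0.094 for ITGA5, with a log2 change of -1.31 (SE 0.24). A fit that set the clones against the control and the R-spondin2 library as 1 wild type group was added after the data were seen, and it counts the treatment as spread. It called 8 of the 21 genes at an adjusted p of 0.05 or less, the same 8, against 14.7% of all genes.

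ITGA5, the α subunit of the main fibronectin receptor, was the most abundant α gene of the control. It was at 92.2 FPKM in the control, 108.0 FPKM with R-spondin2, 29.7 FPKM in clone 1 and 44.8 FPKM in clone 2. Both clones lay below both wild type libraries. The log2 change was -1.60 in clone 1 and -1.02 in clone 2, and 0.23 with R-spondin2. When FPKM were turned back into reads with the transcript length and depth, the control held 3651 reads and clone 1 held 1176. The log2 ratio of reads was -1.63 (95% Clopper-Pearson interval -1.73 to -1.54) for clone 1 and -1.04 (-1.12 to -0.96) for clone 2. For R-spondin2 it was 0.23 (0.16 to 0.29). Here and below, such intervals cover counting error only, treat reads as independent molecules although amplified reads are not, and say nothing of the spread between cultures. Of the 12697 genes, 12587 had a higher mean change over the 2 clones than ITGA5.

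The other RGD-binding subunits did not pass 2-fold. ITGAV, the partner of ITGB5 in a vitronectin receptor, was at 10.7 FPKM in the control, 12.8 FPKM with R-spondin2, 8.73 FPKM in clone 1 and 10.2 FPKM in clone 2. Its interval excluded 0 for R-spondin2 (log2 ratio of reads 0.26, 0.04 to 0.49) and for clone 1 (-0.29, -0.54 to -0.05), and included it for clone 2 (-0.06, -0.30 to 0.17). ITGA8 was low, at 0.85 FPKM in the control, 1.46 FPKM with R-spondin2, and 0.42 and 0.41 FPKM in the clones, and its mean was under 1 FPKM. It was highest with R-spondin2 and lowest in the clones, on 51, 86, 25 and 24 implied reads in that order. ITGA2B, the platelet and megakaryocyte α subunit, was at 0.87 and 0.63 FPKM in the wild type libraries, control first, and at 1.74 and 1.63 FPKM in the clones. Unlike ITGA5, it was highest in the clones (log2 ratio of reads 1.00, 0.30 to 1.74, in clone 1, and 0.91, 0.19 to 1.65, in clone 2).

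ITGA9, whose product pairs with ITGB1 and binds tenascin-C among other ligands, changed most of the 21 genes in the clones. It was at 15.5 FPKM in the control, 19.4 FPKM with R-spondin2, 3.44 FPKM in clone 1 and 6.07 FPKM in clone 2. The clones again lay below both wild type libraries. The log2 change was -1.89 in clone 1, -1.22 in clone 2 and 0.30 with R-spondin2. On 1089 implied reads in the control, 242 in clone 1 and 420 in clone 2, the log2 ratio was -2.17 (-2.38 to -1.97) and -1.35 (-1.52 to -1.19). The clones also differed from each other, by 0.81 (0.58 to 1.05) in favor of clone 2. ITGA9 was the second α gene of the control and of R-spondin2 and the sixth in each clone. ITGA4, the other member of its subfamily and a receptor for fibronectin and VCAM1, was at 2.27, 3.52, 1.36 and 1.17 FPKM in control, R-spondin2, clone 1 and clone 2. Its order over the libraries was R-spondin2, control, clone 1, clone 2. ITGA4 lists 2 transcripts, of 1403 and 4189 bases, and at the shorter it held at most 43 implied reads. At that length only the interval of clone 2 excluded 0 (-0.98, -2.02 to -0.0048). The longer transcript would imply more reads and narrower intervals, so this is not a contrast between libraries.

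ITGA6, the laminin receptor subunit of pluripotent cells, went the other way. It was at 15.4 FPKM in the control, 8.39 FPKM with R-spondin2, 32.6 FPKM in clone 1 and 25.2 FPKM in clone 2. The R-spondin2 library was the lowest and both clones were the highest. The log2 change was -0.80 with R-spondin2, 1.04 in clone 1 and 0.68 in clone 2. The gene lists 3 transcripts, and at the length of the shortest the log2 ratio of reads was -0.88 (-1.10 to -0.66), 1.09 (0.93 to 1.24) and 0.71 (0.55 to 0.88). Only 52 of the 12697 genes had a lower change with R-spondin2, and 156 had a higher mean change over the clones. At 1.5-fold ITGA6 was the 1 member called with R-spondin2, against 2% of all genes, and 1 of 3 called in both clones, with ITGA5 and ITGA9, against 5.7% of all genes. These comparisons share the control library, so that the opposite signs are not independent of each other. With the R-spondin2 library as the reference in place of the control, a choice made after the data were seen, ITGA6 was at least 2-fold higher and ITGA5 and ITGA9 at least 2-fold lower in both clones, 3 of 21 against 3.48% of all genes.

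ITGA7, a second laminin-binding subunit best known from muscle, followed the order of ITGA6. It was at 10.5 FPKM in the control, 7.66 FPKM with R-spondin2, 18.3 FPKM in clone 1 and 15.1 FPKM in clone 2. The log2 changes of -0.41, 0.74 and 0.49 were below 2-fold, and all 3 intervals of the read ratio excluded 0. ITGA3, the α subunit of a receptor for laminins that hold LAMA5 or LAMA3, did not follow that order. It was at 12.8 FPKM in the control, 13.6 FPKM with R-spondin2, 7.11 FPKM in clone 1 and 8.88 FPKM in clone 2. It was lower in both clones (log2 change -0.76 and -0.48), as ITGA5 was, and with R-spondin2 no difference was detectable at this depth (log2 ratio of reads 0.08, -0.09 to 0.25). The laminin-binding α subunits therefore did not move as 1 group.

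Because ITGA5 and ITGA6 were the leading α genes of the clones and differed in opposite directions, the sequences around their RefSeq starts are shown, with that of LAMA5, the laminin gene that differed most in the clones. The windows run from 250 bases before to 50 bases after the start, 5′ to 3′ on the strand of the gene, in GRCh38.p14, which is not the build of the deposited values (hg19). ITGA6 has a pair of windows that share 50 bases. Capitals mark every match, on either strand, to a GC box (GGGCGG), a TCF/LEF core (CTTTGA), a SMAD box (CAGAC), a T-box motif (AGGTGT) or a TATA box (TATAAA).
ITGA5, chr12:54419217-54419516, minus strand: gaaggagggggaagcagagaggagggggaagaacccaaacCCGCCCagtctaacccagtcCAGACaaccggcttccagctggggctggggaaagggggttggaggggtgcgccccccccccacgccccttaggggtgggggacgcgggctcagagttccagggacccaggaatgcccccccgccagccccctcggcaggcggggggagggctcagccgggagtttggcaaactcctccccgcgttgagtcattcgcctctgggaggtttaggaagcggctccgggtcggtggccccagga
ITGA6 upstream start, chr2:172427086-172427385, plus strand: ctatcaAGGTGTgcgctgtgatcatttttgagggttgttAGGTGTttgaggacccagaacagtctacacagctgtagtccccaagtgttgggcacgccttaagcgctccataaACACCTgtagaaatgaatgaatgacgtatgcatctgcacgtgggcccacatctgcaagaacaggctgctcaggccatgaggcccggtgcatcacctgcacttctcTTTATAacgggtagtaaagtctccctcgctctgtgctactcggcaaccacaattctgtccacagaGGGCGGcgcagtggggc
ITGA6 downstream start, chr2:172427336-172427635, plus strand: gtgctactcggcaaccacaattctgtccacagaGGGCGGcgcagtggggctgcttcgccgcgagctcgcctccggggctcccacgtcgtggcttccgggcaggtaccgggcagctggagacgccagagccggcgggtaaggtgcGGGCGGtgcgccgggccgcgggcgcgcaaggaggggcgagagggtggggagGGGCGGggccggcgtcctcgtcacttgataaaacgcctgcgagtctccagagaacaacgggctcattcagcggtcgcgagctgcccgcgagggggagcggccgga
LAMA5, chr20:62367263-62367562, minus strand: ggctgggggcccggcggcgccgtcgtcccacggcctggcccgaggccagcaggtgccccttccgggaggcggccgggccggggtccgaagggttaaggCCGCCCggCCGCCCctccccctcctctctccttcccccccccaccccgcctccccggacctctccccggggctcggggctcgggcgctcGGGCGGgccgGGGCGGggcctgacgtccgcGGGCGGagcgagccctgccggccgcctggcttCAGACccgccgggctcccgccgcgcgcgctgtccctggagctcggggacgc
The ITGA5 window held 1 GC box and 1 SMAD box. The upstream ITGA6 window held 3 T-box motifs, 1 TATA box and 1 GC box, and the downstream one 3 GC boxes. In the LAMA5 window, 5 GC boxes and 1 SMAD box were found. The TCF/LEF letters were in none of these 4 windows. Among all 35116 windows of this length in the table, 45% held the GC box, 45.3% the SMAD box, 12.9% the TCF/LEF core, 11.4% the T-box motif and 11.5% the TATA box. Windows were listed for 26 of the 38 genes, and not for ITGA7 and ITGA9. A match in letters is a description and shows no binding.

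Summed over the 18 α genes, the RNA was at 168.0 FPKM in the control, 182.1 FPKM with R-spondin2, 109.7 FPKM in clone 1 and 119.2 FPKM in clone 2. The RGD-binding group made up 62.3% of that sum in the control and 67.5% with R-spondin2, and 37.0% and 47.9% in clones 1 and 2. The laminin-binding group made up 23.0% in the control, 16.3% with R-spondin2, 52.9% in clone 1 and 41.3% in clone 2. Its summed level was 38.7 FPKM in the control, 29.6 FPKM with R-spondin2, 58.0 FPKM in clone 1 and 49.2 FPKM in clone 2. In the clones this level rose less than the share, since the sum over all α genes was lower there. The groups were set after the values were seen. In clone 1 the laminin-binding group was thus the larger of the pair, and in the other 3 libraries the RGD-binding group was. ITGA5 alone went from 54.9% in the control to 27.1% and 37.6% in the clones, and ITGA6 alone from 9.16% to 29.8% and 21.1%. The ratio of ITGA6 to ITGA5 was 0.167 in the control, 0.0777 with R-spondin2, 1.10 in clone 1 and 0.562 in clone 2. A share can move because another gene of its class moves, but here the levels of ITGA5 and ITGA6 themselves differed, as given above. No interval is given for the shares, since FPKM are not counts.

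**Figure D2:**
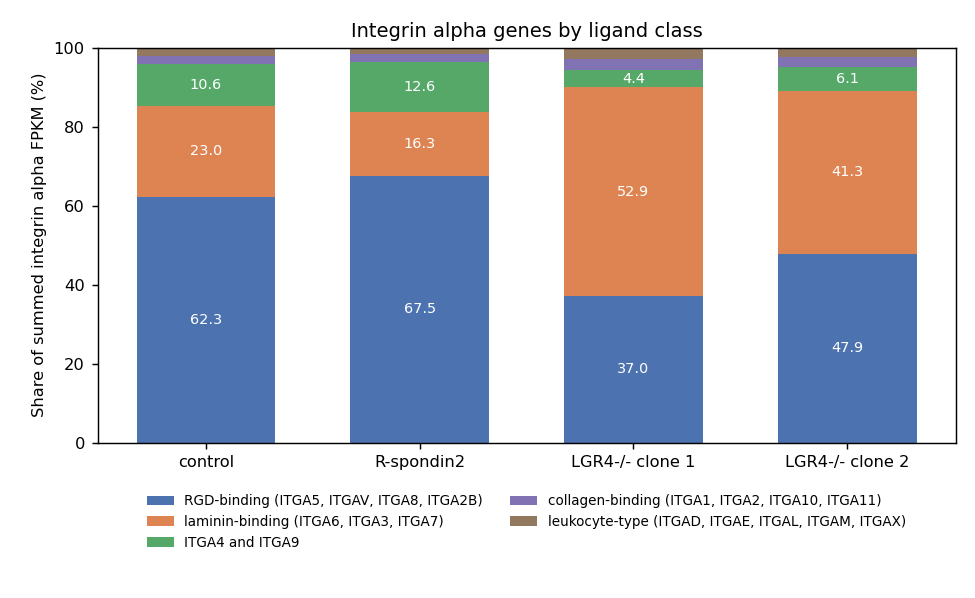
Share of summed integrin α FPKM (vertical axis, percent) held by 5 groups of α genes named for their ligands or cells, with 1 bar per library. The laminin-binding share was 23.0% in the control, 16.3% with R-spondin2, 52.9% in clone 1 and 41.3% in clone 2, and the share of ITGA4 with ITGA9 was lower in both clones than in the control.

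The collagen-binding subunits were low throughout. ITGA1 was at 2.31 FPKM in the control, 3.01 FPKM with R-spondin2, 1.59 FPKM in clone 1 and 1.52 FPKM in clone 2. Its read ratio was above 0 for R-spondin2 (0.38, 0.12 to 0.65) and below 0 in both clones (-0.54, -0.85 to -0.23, and -0.60, -0.91 to -0.29). ITGA2 was at 0.57 and 0.54 FPKM in control and R-spondin2 and at 1.08 and 1.06 FPKM in the clones, so that it was higher in both clones, where ITGA1 was lower. With R-spondin2 its interval included 0 (log2 ratio of reads -0.07, -0.76 to 0.61). ITGA10 and ITGA11 stayed at or below 0.36 FPKM. Of the leukocyte-type subunits, ITGAE, which pairs with ITGB7 to bind E-cadherin, was at 2.34, 1.85, 2.03 and 1.86 FPKM in control, R-spondin2, clone 1 and clone 2, and none of its intervals against the control excluded 0. ITGAL, ITGAM, ITGAX and ITGAD were at 0.63 FPKM or less in every library, and their partner ITGB2 was at 0.70 FPKM or less. ITGAD was listed at 0 with R-spondin2 and in clone 2, where 3 reads would give 0.0883 and 0.0873 FPKM.

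The 2 abundant β subunits stayed below 2-fold in every library. ITGB1, the common partner of most of the α subunits named above, was at 119.6 FPKM in the control, 135.5 FPKM with R-spondin2, 102.4 FPKM in clone 1 and 120.4 FPKM in clone 2. ITGB5 was at 101.0, 106.1, 85.8 and 102.5 FPKM in the same order. For both genes clone 1 was the lowest library and R-spondin2 the highest, and clone 2 lay beside the control, with log2 ratios of reads of 0.009 (-0.06 to 0.07) and 0.02 (-0.04 to 0.09). In clone 1 the ratios were -0.22 (-0.29 to -0.16) and -0.24 (-0.30 to -0.17). Their ratio to each other lay between 1.17 and 1.28 in all 4 libraries. Summed α FPKM per summed β FPKM was 0.752 in the control, 0.745 with R-spondin2, 0.573 in clone 1 and 0.527 in clone 2. ITGB4, which pairs only with ITGA6 and builds hemidesmosomes, was low and, like ITGA6, higher in both clones than in the control. It stood at 0.61 FPKM in the control, 0.45 FPKM with R-spondin2, 1.28 FPKM in clone 1 and 1.40 FPKM in clone 2. Unlike ITGA6, it was not higher in clone 1 than in clone 2. With R-spondin2 its interval included 0 (log2 ratio of reads -0.41, -1.27 to 0.43). On 30 implied reads in the control and 63 and 68 in the clones, its log2 ratio was 1.07 (0.42 to 1.75) and 1.20 (0.56 to 1.87). ITGB8 was at 0.78 to 0.85 FPKM and ITGB3 at 0.23 to 0.51 FPKM. ITGB7 did not exceed 0.39 FPKM, and ITGB6 was at 0.03 FPKM in the control and listed at 0 in the other 3 libraries.

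**Figure D3:**
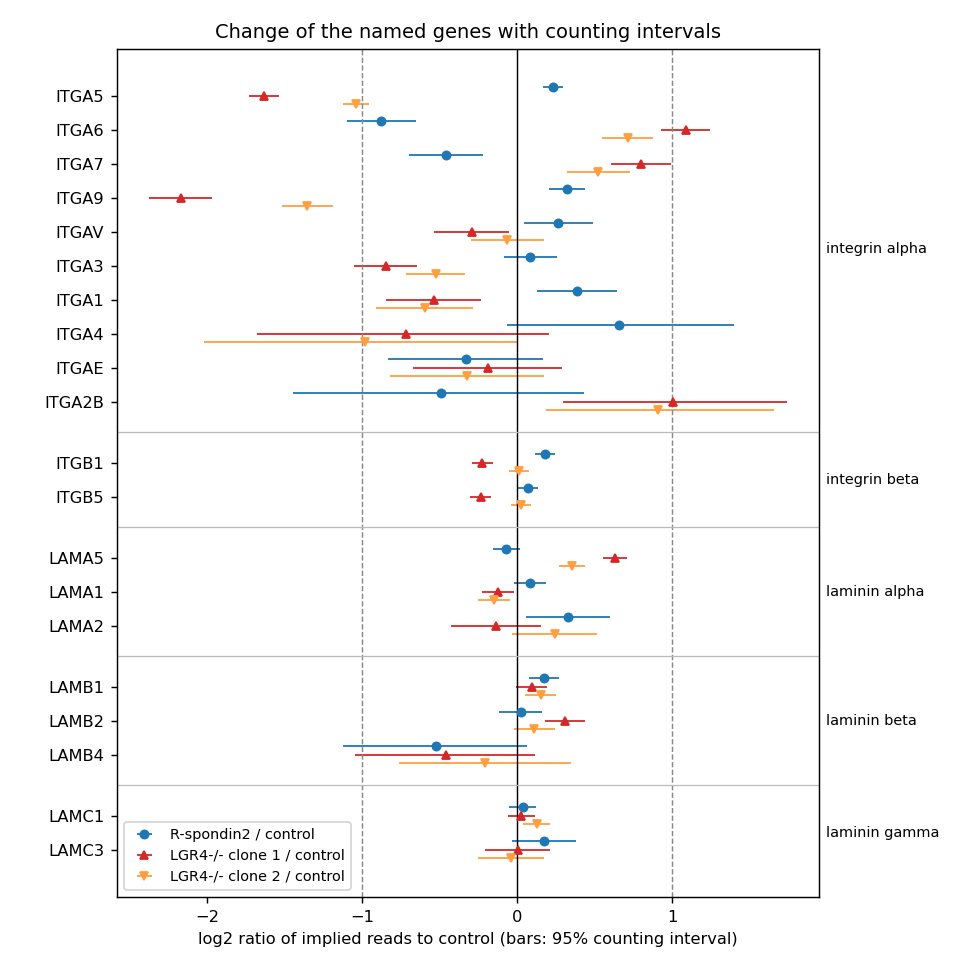
Log2 ratio of implied reads to the control (horizontal axis) for the named genes that averaged 1 FPKM or more, with 95% Clopper-Pearson intervals as bars and dashed lines at 2-fold. ITGA5 and ITGA9 lie at -1.04 or lower in both clones, ITGA6 lies at 1.09 in clone 1 and -0.88 with R-spondin2, and the laminin genes lie between -0.52 and 0.63.

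No laminin gene passed 2-fold in any library. LAMA5, the α chain of the laminins widely used to grow pluripotent cells, differed most in the clones. It was at 21.8 FPKM in the control, 20.7 FPKM with R-spondin2, 33.6 FPKM in clone 1 and 27.8 FPKM in clone 2. Both clones were above both wild type libraries, with log2 changes of 0.61 and 0.34 and read ratios whose intervals excluded 0 (0.63, 0.55 to 0.71, and 0.35, 0.27 to 0.43). With R-spondin2 the ratio was -0.07 (-0.16 to 0.01). LAMA1, the α chain of the early embryonic laminin, was at 18.3, 19.4, 16.8 and 16.5 FPKM in control, R-spondin2, clone 1 and clone 2. It was slightly lower in both clones (log2 ratio of reads -0.13, -0.23 to -0.02, and -0.15, -0.26 to -0.05). The ratio of LAMA5 to LAMA1 was 1.19 in the control, 1.07 with R-spondin2, 2.00 in clone 1 and 1.68 in clone 2. LAMA2, known from muscle, was at 2.19 to 3.02 FPKM, and LAMA3 and LAMA4 did not exceed 0.44 FPKM.

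The β and γ chains were more even. LAMB1 was at 30.7 FPKM in the control, 34.6 FPKM with R-spondin2, 32.7 FPKM in clone 1 and 34.1 FPKM in clone 2, so that the control was the lowest. LAMB2 was at 17.2, 17.5, 21.3 and 18.6 FPKM in the same order and was highest in clone 1 (log2 ratio of reads 0.31, 0.18 to 0.44). LAMC1, the γ chain of most laminins, was at 29.9, 30.7, 30.5 and 32.7 FPKM, with clone 2 the highest (log2 ratio of reads 0.13, 0.04 to 0.21). LAMC3 was at 6.80, 7.67, 6.82 and 6.62 FPKM, with no interval against the control that excluded 0. LAMB3 did not exceed 0.33 FPKM. LAMB4 was at 2.67 FPKM in the control and 1.84 to 2.33 FPKM elsewhere. It lists 4 transcripts, of 2600 to 5858 bases, and at the shortest every interval against the control included 0. A longer transcript would imply more reads and narrower intervals, which were not computed.

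The library kit and the counting are not stated to keep the strand, and exons of other genes lie on the opposite strand of several of these genes in GENCODE 29. Such exons share 225 bases with ITGA9 (ITGA9-AS1), 48 bases with ITGA5, 44 bases with ITGA7 (METTL7B), 203 bases with ITGAV and 75 bases with LAMA5 (LAMA5-AS1). For ITGA6, 3 such genes share 174, 125 and 52 bases, for LAMA1, 2 share 431 and 113 bases, and for the low gene ITGB7, ZNF740 shares 1474 bases. Other members with such overlaps are not listed. On the same strand, PELO shares 475 exon bases with ITGA1. The part of these overlaps in the values was not tested.

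The genes that laminins and integrins work with were described by 3 lists. Of the 15 compared genes of the basement membrane list, 1 fell by at least 2-fold in both clones and 0 rose, against 1.08% and 0.236% of all genes. The gene that fell was FREM1, a basement membrane protein of embryonic epithelia, at 10.2 FPKM in the control, 13.8 FPKM with R-spondin2, and 2.34 and 3.16 FPKM in the clones. The core partners NID1 (8.14 to 8.74 FPKM) and HSPG2 (19.4 to 23.7 FPKM) were nearly level. COL4A1 was at 50.5 FPKM in the control and 32.4 and 36.1 FPKM in the clones. BCAM, a cell surface receptor for LAMA5, was at 21.8 FPKM in the control, 13.3 FPKM with R-spondin2, and 52.0 and 38.7 FPKM in the clones, with log2 changes of 1.22 and 0.80 of which only that of clone 1 passed 2-fold.

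Of the 13 compared genes in the list of other integrin ligands, FBN2 fell and MFGE8 rose by at least 2-fold in both clones, 1 of 13 in each direction against 1.08% of all genes lower and 0.236% higher. FBN2, a fibrillin of embryonic microfibrils, was at 93.1 FPKM in the control, 120.2 FPKM with R-spondin2, and 21.9 and 34.0 FPKM in the clones. MFGE8, a secreted protein with an RGD sequence, was at 78.5, 61.9, 215.9 and 161.7 FPKM in that order. FN1, the fibronectin gene and ligand of ITGA5, was at 70.6 FPKM in the control, 79.7 FPKM with R-spondin2, 42.8 FPKM in clone 1 and 49.1 FPKM in clone 2. TNC, the tenascin-C gene and a ligand of ITGA9, was at 29.6, 33.4, 11.1 and 15.7 FPKM, with a log2 change of -1.34 in clone 1 and -0.87 in clone 2. CDH1, the E-cadherin gene, was at 40.4, 29.2, 83.8 and 72.7 FPKM in that order, with a log2 change of 1.03 in clone 1 and 0.83 in clone 2. In clone 1, 2 of the 13 genes rose and 2 fell by at least 2-fold, against 1.26% and 2.26% of all genes. VTN and VCAM1, ligands of ITGAV and ITGA4, did not exceed 0.53 FPKM. Of the 25 compared genes for integrin activation and adhesion, 0 passed 2-fold in both clones, against 1.32% of all genes, or with R-spondin2, against 0.221%. At such background shares a count of 0 among 25 genes says nothing particular about the list. Talin (TLN1, 29.2 to 39.6 FPKM), vinculin (VCL, 78.3 to 99.4 FPKM) and focal adhesion kinase (PTK2, 29.9 to 32.2 FPKM) differed little between libraries. SRC, a kinase that acts with PTK2, was at 31.7 FPKM in the control, 36.8 FPKM with R-spondin2, and 16.9 and 19.2 FPKM in the clones (log2 change -0.87 and -0.69). PARVA, an actin-binding adhesion protein, was at 5.71, 6.91, 2.94 and 4.19 FPKM in that order. Within the kindlins, which activate integrins, FERMT2 was at 94.1 FPKM in the control and 55.2 and 66.2 FPKM in the clones, and FERMT1 was at 2.40 FPKM and 5.09 and 4.95 FPKM. CD9, a tetraspanin that associates with integrins, was at 39.9 FPKM in the control, 31.9 FPKM with R-spondin2 and 72.2 and 72.3 FPKM in the clones.

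**Figure D4:**
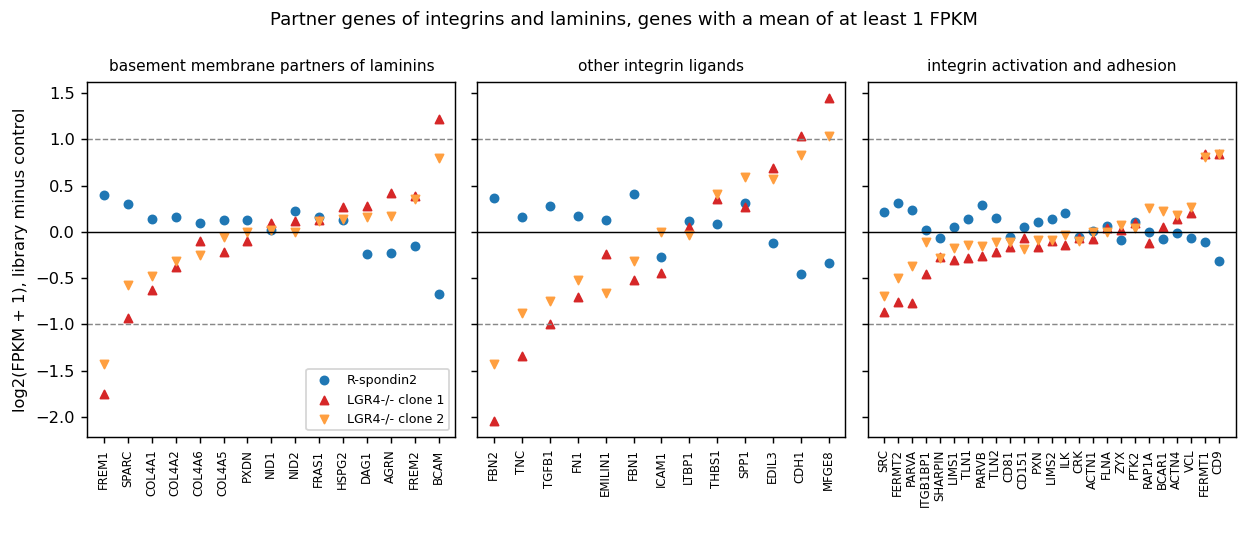
Difference in log2(FPKM + 1) from the control (vertical axis) for the genes of 3 partner lists that averaged 1 FPKM or more, with 1 point per library and dashed lines at 2-fold. FREM1 and FBN2 lie below -1 and MFGE8 above 1 in both clones, and all 25 genes for integrin activation and adhesion lie within the dashed lines.

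Markers of cell state also differed between the libraries. All 6 pluripotency markers (POU5F1, NANOG, SOX2, PRDM14, DPPA4 and LIN28A) were lower with R-spondin2 and higher in both clones than in the control. Their summed level was 1144 FPKM in the control, 877.0 FPKM with R-spondin2, and 1914 and 1751 FPKM in the clones. By any amount, all 7 mesoderm markers (T, MIXL1, EOMES, MESP1, HAND1, APLNR and KDR) were lower in both clones, and 6 were higher with R-spondin2. They summed to 1070, 1398, 378.1 and 589.3 FPKM in control, R-spondin2, clone 1 and clone 2. In that order T was at 70.3, 77.8, 37.6 and 66.5 FPKM and KDR at 34.4, 34.1, 26.8 and 32.9 FPKM. In clone 2 both were thus nearly level with the control, as KDR was with R-spondin2. In both clones SOX2 and PRDM14 rose, and HAND1, APLNR and MESP1 fell, by at least 2-fold. The 4 definitive endoderm markers summed to 2458, 3533, 637.9 and 1077 FPKM, nearly all of it CER1, which fell by at least 2-fold in both clones. Of the 4 endoderm markers, 3 were lower in both clones and 1, FOXA2, was higher. FOXA2 was at 9.05 FPKM in the control, 8.44 FPKM with R-spondin2, and 11.9 and 11.6 FPKM in the clones. The 4 neuroectoderm markers summed to 36.5 to 55.9 FPKM, nearly all of it OTX2 (35.9 to 54.9 FPKM), while PAX6 and ZIC1 stayed at or below 0.54 FPKM and SOX1 at or below 0.03 FPKM. The 5 endothelial markers summed to 6.55 to 11.3 FPKM, with CDH5 at or below 0.05 FPKM. Of the 5 blood markers, which summed to 5.14 to 9.42 FPKM, RUNX1 fell by at least 2-fold in both clones, from 3.96 FPKM in the control to 0.61 and 1.29 FPKM, and it was at 3.71 FPKM with R-spondin2. The 8 stromal or fibroblast markers summed to 237.8, 297.4, 216.4 and 247.5 FPKM, with DCN at or below 0.27 FPKM. Among them LUM fell by at least 2-fold in both clones, from 5.49 FPKM in the control to 0.16 and 1.45 FPKM, and it was at 9.11 FPKM with R-spondin2. The list went both ways: 3 markers (LUM, COL1A2 and PDGFRB) were lower in both clones and 3 (COL1A1, THY1 and POSTN) higher. COL1A1 was at 64.0 FPKM in the control and 74.8 and 74.6 FPKM in the clones. THY1 was at 44.0 FPKM in the control and 54.3 and 64.5 FPKM in the clones. The part of these markers in the integrin and laminin values was not tested.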

How the data were processed

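The authors deposited FPKM (fragments scaled for transcript length and mapped depth) to 2 decimals for 17894 genes with NCBI gene identifiers, 1 file per library and no read counts. The submitters' processing notes name BWA, Bowtie and RSEM and the build hg19, and filters are not given in the sources used here. Groups came from the sample titles. Differences were taken on log2(FPKM + 1), with the pseudocount that the study's heatmaps used, over the 12697 genes that averaged 1 FPKM or more. All genes of the family at or above that mean were named with their values, except 1 that is counted but not reported here. The members and gene lists were chosen with earlier results of these data known, and the ligand groups of the α subunits after their values were seen.

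Depth was read from low values: in steps of 10000 reads, the total was chosen that made FPKM under 0.6, in transcripts under 1500 bases, most nearly whole numbers of reads. Transcript lengths were those of GENCODE 29 for 8068 genes with 1 RefSeq transcript. Of these genes, 335 to 359 per library had such a low value and were used. At the estimates, 76.3% to 77.7% of the low values were no more than 0.2 reads from a whole number, against 44.8% to 46.5% with shuffled lengths. Implied reads used the shortest listed transcript. Where several are listed, this choice gives the fewest reads and the widest intervals. Intervals were given from a total of 20 reads. limma was fitted with an intensity trend. The scripts were tested on simulated data. The tools were R 4.3.3 with limma 3.58.1, and Python 3.11.15 with pandas 2.3.3, scipy 1.17.1, numpy 2.4.6 and matplotlib 3.10.9. Alternatives were a pseudocount of 0.1, no filter, a mean of at least 5 FPKM, rescaling by median ratios, a 1.5-fold threshold, each clone left out and the limma fits.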

Additional observations from a re-analysis of the deposited data

How the results depend on the processing

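ITGA5 and ITGA9 were the members past 2-fold in both clones with a pseudocount of 0.1 FPKM, without a filter, at a mean of at least 5 FPKM and after rescaling by median ratios. At 1.5-fold ITGA6 was added to them, and with R-spondin2 the count of members went from 0 to 1, ITGA6, which was lower. With clone 1 or clone 2 left out, the count was between 2 and 3. It was 0 in the limma fit with 3 groups and 8 in the fit against both wild type libraries. Members' median change in the clones, -0.11 as the mean of both, was -0.015 at a mean of at least 5 FPKM and between -0.118 and 0.0087 with a clone left out, turning in sign without clone 1. Over all genes, 28 passed 2-fold with R-spondin2, 167 in both clones and 32 between the clones. These counts were 139, 345 and 141 with the pseudocount of 0.1, 254, 724 and 306 at 1.5-fold, and 14 with R-spondin2 and 12 between the clones at a mean of at least 5 FPKM. The pseudocount of 0.1 also moved the split in both clones from 30 higher and 137 lower to 115 higher and 230 lower. The cause was not tested. ITGA6 was past 2-fold without clone 2, at 1.04. No paired analysis was possible because the control and R-spondin2 groups have 1 library each and share fewer than 2 replicate numbers with the clones. With 1 control library, 1 R-spondin2 library and 1 library per clone, the spread between cultures limits all of these values and is unknown.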
